A study of Mus musculus with 4 samples.

Results

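Levels of 10 genes that separate immature thymocytes of a PD-1 knockout-labelled library from those of a wild-type (WT) mouse library were compared across stages of early T cell development. The genes were Scn4b, Emid1, Fam163b, Khdc1a, Scin, Kremen1, Cldn4, Atoh8, Chrna9 and Bst1, of 32285 genes counted, and all 10 were detected. They had been picked because their levels differed between these libraries, so the size and direction of that difference chose them and are given as a description, without a test. The cells are those with at least 1 UMI (unique molecular identifier, 1 captured transcript) of Ptcra and 0 UMIs of Cd4 and of Trac. Ptcra encodes the invariant chain of the pre-T cell receptor (pre-TCR), and Trac the constant region of the mature receptor's α chain.

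Thymi of 4 mice aged 3 weeks, on the C57BL/6J background and either PD-1 knockout or WT, were pooled for each group and depleted of CD8-bearing cells. Live HSA+ CD73- cells were then sorted as CD4+ CD25+, a gate meant for regulatory T cells and their progenitors (KO_TregP and WT_TregP), or as CD4+ CD25- (KO_CD4 and WT_CD4). Single-cell 5′ libraries were made, 1 for each group, so a difference below is one between 2 libraries and cannot be told apart from an effect of pool, sort or library preparation. Which part of the PD-1 gene was deleted is not stated. Pdcd1, which encodes PD-1, stood at 7.46 CPM (UMIs scaled to one common total for each group of cells) in the selected knockout-labelled cells and 6.50 CPM in the selected WT cells, and 5′ reads may lie outside a deletion, so the libraries are named by their labels. The rule found 6591 of 9236 kept cells (71.4%) in the knockout-labelled CD25+ library, 4785 of 7649 (62.6%) in the WT CD25+ library and 0 of 1716 knockout-labelled and 0 of 2985 WT cells in the CD25- libraries.

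T cell precursors pass through double-negative stages, named for their lack of both CD4 and CD8. At the third of these, DN3, cells carry CD25, depend on Notch signals, recombine the receptor β locus with the Rag1 and Rag2 enzymes, and test its product as a pre-TCR. Cells that pass this β-selection divide and lose CD25, Rag and Ptcra transcripts. Cpa3, Lyl1 and Hhex belong to the preceding progenitor stages, and Mki67 to dividing cells.

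The selected cells, called DN3-like, carried the markers of that stage, of which CD25 had been sorted on and Ptcra selected on. Il2ra, which encodes CD25, stood at 1262 CPM in knockout-labelled and 1513 CPM in WT cells, Dntt, which adds bases at recombining joints, at 1097 and 1512 CPM, and Notch1 at 469 and 500 CPM. All 23 listed DN3 genes had at least 20 UMIs, but so did all 20 listed proliferation genes, so this count does not set the stage apart. Although the cells had been sorted as CD4+, most cells of either library met the requirement of 0 UMIs of Cd4. Cells were assigned to the first stage they met: early, with at least 2 UMIs of Cpa3, Lyl1 and Hhex together (196 knockout-labelled and 101 WT cells); cycling, with at least 5 UMIs of Mki67 (535 and 218 cells); Rag1-positive resting, with at least 1 UMI of Rag1 (4418 and 3437 cells); and Rag1-zero resting (1442 and 1029 cells). Cycling cells made up 8.12% (95% Clopper-Pearson interval 7.47 to 8.80) of the knockout-labelled and 4.56% (3.98 to 5.19) of the WT cells. Median depth was 5998 UMIs per knockout-labelled and 6082 per WT cell, and 15352 against 19520.5 UMIs in cycling cells. Both libraries held Xist in nearly all of these cells (6546 knockout-labelled and 4768 WT) and no UMI of the Y-linked genes looked for, and they shared 136 cell barcodes.

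Over all selected cells, Scn4b, Emid1, Fam163b, Khdc1a, Scin and Kremen1 were lower in the knockout-labelled library, and Cldn4, Atoh8, Chrna9 and Bst1 were higher. A gene was counted as higher or lower where its CPM differed by at least 1.5-fold and reached 20 CPM in either library. By that measure 6 members were lower and 2 (Cldn4 and Chrna9) higher, where 1.75% of 7086 tested genes were lower and 2.46% higher; these members were chosen on this very contrast, so nothing is read from the excess. The 6 lower members had a median log2 ratio of -1.70 and the 4 higher members one of 0.55, beside -0.06 over all tested genes. Scin, Kremen1 and Scn4b ranked 4, 7 and 8 from the lowest ratio, whereas Cldn4 ranked 104, Chrna9 164, Bst1 221 and Atoh8 368 from the highest. These ranks come from the contrast that chose the genes.

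**Figure D1:**
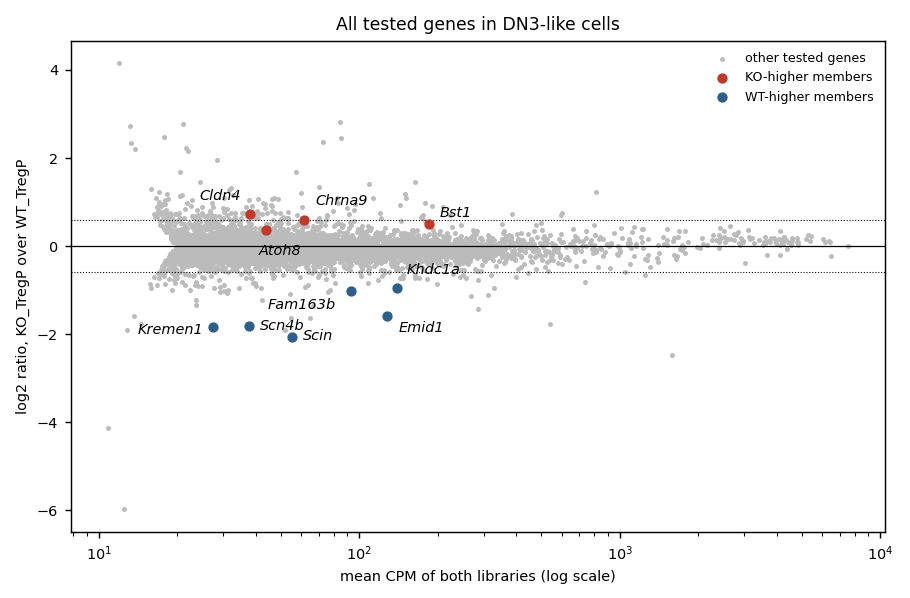
All 7086 tested genes in the selected cells: log2 ratio of CPM, knockout-labelled (KO_TregP) over WT (WT_TregP), against the mean CPM of both libraries on a log axis; dotted lines mark 1.5-fold. The 6 WT-higher members lie at log2 ratios of -2.06 to -0.96 and the 4 KO-higher members at 0.37 to 0.72.

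Both ion channel subunits among the members differed, in opposite directions. Scn4b encodes an auxiliary β subunit of voltage-gated sodium channels. It stood at 16.7 CPM in knockout-labelled cells (813 UMIs, 95% Poisson interval 15.6 to 17.9) and 59.1 CPM in WT cells (2045 UMIs, 56.5 to 61.7), 3.53-fold lower (3.25 to 3.83, exact conditional interval). The difference was of like size in Rag1-positive resting cells (23.0 against 74.9 CPM) and Rag1-zero resting cells (15.2 against 52.5 CPM), with log2 ratios of -1.70 and -1.79. In early cells (2.24 against 7.85 CPM) the log2 ratio was -1.81, but it rests on 7 knockout-labelled and 12 WT UMIs. Its interval there was wide (-3.39 to -0.35), so its size is poorly known. In cycling cells only 18 knockout-labelled and 17 WT UMIs were counted, and the log2 ratio of -0.86 had an interval that included no difference (-1.90 to 0.19). Chrna9 encodes the α9 subunit of a nicotinic acetylcholine receptor. It was at 74.3 CPM in knockout-labelled cells (71.9 to 76.8) and 48.9 CPM in WT cells (46.6 to 51.3), 1.52-fold higher (1.43 to 1.61). Its log2 ratio was 0.67 to 0.75 in the early and both resting stages and 1.47 (0.80 to 2.20) in cycling cells. There 14.0 CPM was counted in knockout-labelled and 5.07 CPM in WT cells. With each cell drawn down at random to 3000 UMIs and staged anew, the cycling log2 ratio was -1.76 (95 knockout-labelled and 28 WT cells). Before thinning, the cycling cells held only 117 knockout-labelled and 22 WT UMIs of Chrna9. The thinned ratio has no interval and rests on fewer cells, so no reversal is read from it.

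Emid1 encodes a secreted protein with an EMI domain and collagen-like stretches. It stood at 64.3 CPM in knockout-labelled cells (3124 UMIs) and 192 CPM in WT cells (6659 UMIs), 2.99-fold lower (2.86 to 3.12). It was at or above 20 CPM in every stage of both libraries: 25.0 against 101 CPM in early cells, 35.2 against 84.8 CPM in cycling cells, 78.1 against 222 CPM in Rag1-positive and 60.7 against 180 CPM in Rag1-zero resting cells. No stage's counting intervals overlapped between the libraries. Its ratio was farthest from 1 in early cells (log2 -2.02, -2.44 to -1.62) and nearest in cycling cells (-1.27, -1.50 to -1.04), and these intervals did not overlap.

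Kremen1, its neighbour on the chromosome, encodes a receptor for Dickkopf proteins that removes a Wnt co-receptor from the cell surface. It was at 12.1 CPM in knockout-labelled cells (589 UMIs) and 43.0 CPM in WT cells (1488 UMIs), 3.54-fold lower (3.22 to 3.90). It kept nearly that size in cycling cells, at 9.48 against 29.5 CPM (log2 -1.64, -2.06 to -1.22), and in both resting stages (-1.85 and -1.80). Early cells held 32 knockout-labelled and 29 WT UMIs, and there the log2 ratio was -0.89 (-1.66 to -0.11).

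Both remaining surface proteins were higher in the knockout-labelled library. Bst1 encodes CD157, an ectoenzyme anchored in the membrane by a lipid. It stood at 218 CPM in knockout-labelled cells (10570 UMIs, 214 to 222) and 154 CPM in WT cells (5319 UMIs, 150 to 158), 1.42-fold higher (1.37 to 1.46). In cycling cells it was at 111 CPM against 38.02 CPM, 2.91-fold higher (2.46 to 3.45), and in Rag1-positive resting cells at 274 against 190 CPM, 1.44-fold higher (1.39 to 1.49). Those intervals did not overlap. Some genes of the DN3 stage moved the same way in cycling cells. Rag1 was at 150 against 98.6 CPM, Notch3 at 77.9 against 47.7 CPM, Hes1, a Notch target, at 87.5 against 55.5 CPM, and Ptcra at 422 against 308 CPM. These were 1.52-, 1.63-, 1.58- and 1.37-fold higher, beside 0.902-, 0.904-, 1.02- and 0.976-fold in Rag1-positive resting cells. Others went the other way in cycling cells: Dntt was at 998 against 1208 CPM, Dtx1 at 38.5 against 45.2 CPM and Cd3e at 886 against 968 CPM. The 23 listed DN3 genes summed to 8908 against 8723 CPM there. The part of these genes in the larger cycling ratios of the members was not tested. Cldn4 encodes a claudin, a tight-junction protein of epithelia. It was at 47.6 CPM in knockout-labelled cells (2313 UMIs) and 28.8 CPM in WT cells (998 UMIs), 1.65-fold higher (1.53 to 1.78). The cycling cells again had the largest ratio, 3.19-fold (1.90 to 5.68), from 12.5 CPM in knockout-labelled and 3.92 CPM in WT cells, which rests on 104 and 17 UMIs. Drawn down to 3000 UMIs and staged anew, the cycling cells (95 and 28) had Cldn4 lower instead, at a log2 ratio of -1.18. That ratio has no interval and rests on fewer and shallower cells, so no reversal is read from it. Epcam, another epithelial gene, was also farthest apart in cycling cells, at 138 against 63.8 CPM (2.17-fold higher), beside 276 against 233 CPM in Rag1-positive resting cells.

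The intracellular members held the largest and the smallest difference. Scin encodes adseverin, a calcium-dependent protein that severs actin filaments. It stood at 21.4 CPM in knockout-labelled cells (1039 UMIs) and 89.0 CPM in WT cells (3082 UMIs), 4.16-fold lower (3.88 to 4.47). Its ratio varied with stage more than counting error allows: Rag1-positive resting cells were at 15.4 against 89.0 CPM (5.80-fold lower, 5.23 to 6.44), early cells at 62.4 against 171 CPM (2.74-fold, 2.27 to 3.31) and cycling cells at 28.0 against 58.5 CPM (2.09-fold, 1.75 to 2.51). Atoh8 encodes a basic helix-loop-helix transcription factor. It was at 49.4 CPM in knockout-labelled cells (47.4 to 51.4) and 38.2 CPM in WT cells (36.2 to 40.3), 1.29-fold higher (1.21 to 1.38). In early cells, with 20 and 9 UMIs, its log2 ratio of 0.12 included no difference (-1.08 to 1.44), and in cycling cells it was 1.38 (0.57 to 2.29).

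Khdc1a, which encodes a KH-domain protein known from mouse oocytes, was at 95.1 CPM in knockout-labelled cells (4617 UMIs) and 185 CPM in WT cells (6389 UMIs), 1.94-fold lower (1.87 to 2.02). Fam163b, a gene of poorly known function, was at 61.5 CPM in knockout-labelled cells (2986 UMIs) and 124 CPM in WT cells (4304 UMIs), 2.02-fold lower (1.93 to 2.12). These were the only members besides Scn4b whose difference between libraries could not be told from none in cycling cells, where Khdc1a stood at 39.5 against 42.9 CPM (log2 -0.12, -0.38 to 0.15) and Fam163b at 22.4 against 25.8 CPM (-0.20, -0.55 to 0.15). In Rag1-positive resting cells their log2 ratios were -0.92 (-0.98 to -0.86) and -0.92 (-0.999 to -0.85), clear of the cycling intervals. In early cells Fam163b had its largest ratio, -2.26 (-3.37 to -1.23), from 12 knockout-labelled and 28 WT UMIs.

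**Figure D2:**
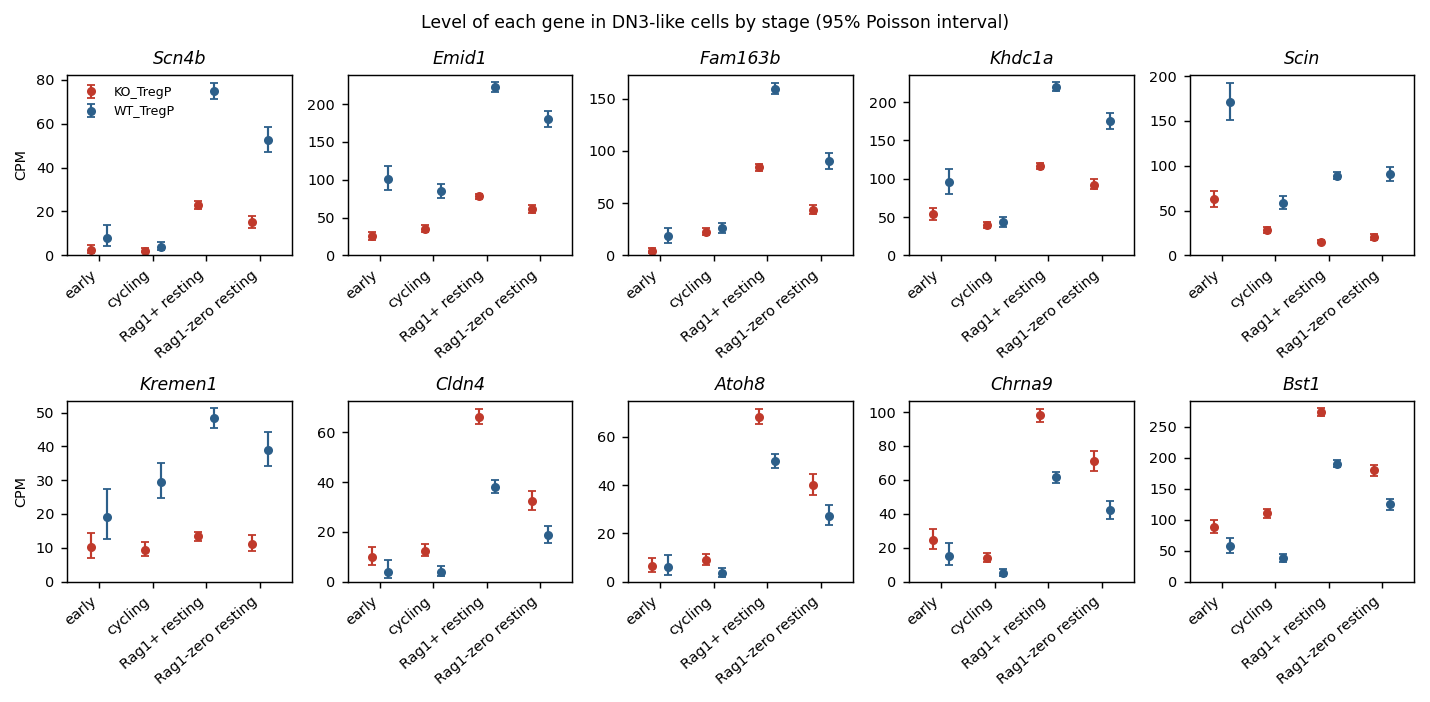
Level of each member in CPM by stage, knockout-labelled library (KO_TregP) left of the WT library (WT_TregP), with 95% Poisson intervals; the vertical axes start at 0 and differ between genes. Emid1 stood at 78.1 against 222 CPM in Rag1-positive resting cells, and Scin was highest in early cells of both libraries, at 62.4 and 171 CPM.

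Read across the stages, the direction of every member was the same as over all cells in each of the 4 stages (40 of 40 values), and 36 of the 40 intervals excluded a ratio of 1. The 4 that did not were Scn4b, Fam163b and Khdc1a in cycling and Atoh8 in early cells. Rag1-positive resting cells made up 67.0% (KO_TregP) and 71.8% (WT_TregP) of the selected cells, and Rag1-zero resting cells 21.9% and 21.5%. Directions in the resting stages therefore largely follow the pooled contrast that chose the genes. The Rag1-zero resting cells were also the shallowest, at medians of 4727.5 and 4850 UMIs, and whether Rag1 was missed in them was not tested. Splitting by each of the 3 thresholds alone gave 60 of 60 values in the direction seen over all cells, but this adds little. Below the early threshold lay 97.0% (KO_TregP) and 97.9% (WT_TregP) of the selected cells, and below the Mki67 threshold 91.1% and 94.8%. At or above the Rag1 threshold the shares were 74.5% and 75.9%. The direction in these large groups largely follows the pooled contrast that chose the genes. The group at or above the early threshold is the early stage again. Crossing all 3 splits gave 8 groups, which include both resting stages unchanged, and 75 of 79 values in that direction. Of those 79 intervals, 47 excluded a ratio of 1. The 4 exceptions lay in early cells: Atoh8 (4 knockout-labelled and 4 WT UMIs), Kremen1 (6 and 1 UMIs), Chrna9 (38 and 14 UMIs, log2 -0.04) and Bst1 (122 and 45 UMIs, -0.05).

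By the 1.5-fold measure with 20 CPM, 6 members were lower and 2 higher in Rag1-positive resting cells, where 1.85% and 1.95% of all tested genes were, and again 6 and 2 in Rag1-zero resting cells (2.36% and 1.69%). In early cells 3 were lower and 2 higher (4.51% and 2.82%), although only 5 of the 10 members reached 20 CPM there. Neither higher call held with cells weighted equally, with cells thinned to 3000 UMIs, or with an early sum of at least 1 or of at least 4, and the lower count was 5 or 6 in 8 of the alternatives tried. In cycling cells 3 were lower and 1 higher (3.37% and 3.96%), with 6 members at 20 CPM. The rule used these contrasts through all cells pooled, so the counts describe the members and support nothing.

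**Figure D3:**
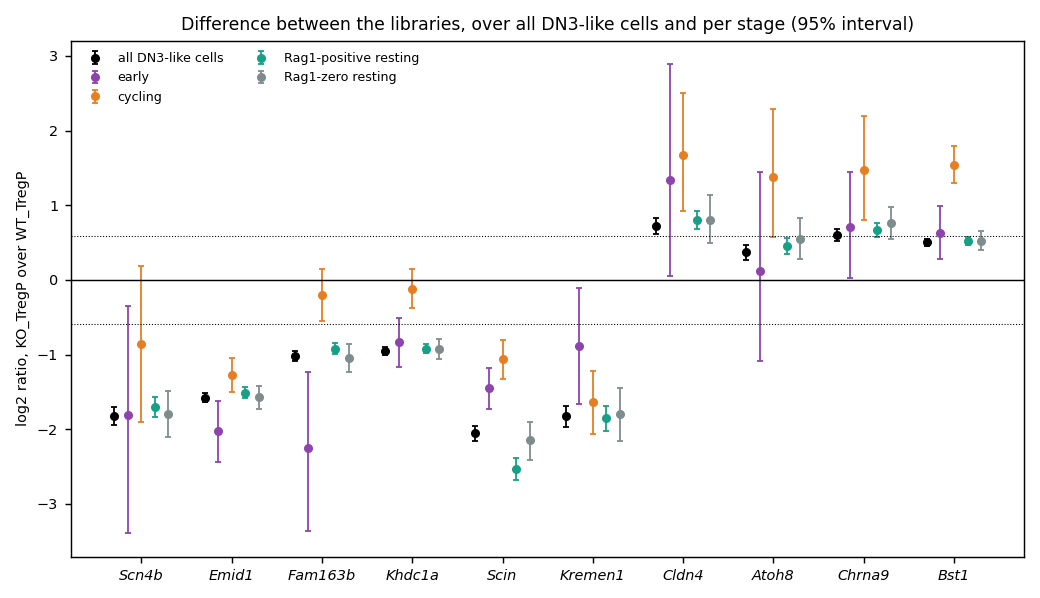
Log2 ratio of CPM, knockout-labelled (KO_TregP) over WT (WT_TregP), for each member over all selected cells and in each stage, with 95% intervals for counting error; dotted lines mark 1.5-fold. Every point of the 6 genes at left lies below 0 and every point of the 4 at right above 0, and the cycling cells have Bst1 at 1.54 and Khdc1a at -0.12.

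The libraries differed in their mix of stages, so the same values were also taken at a common mix. With the stage levels of both libraries weighted by 1 shared mix of the 4 stages, the log2 ratios were -1.72 for Scn4b, -1.52 for Emid1, -0.93 for Fam163b, -0.90 for Khdc1a, -2.27 for Scin and -1.82 for Kremen1. The higher members were at 0.81 for Cldn4, 0.47 for Atoh8, 0.69 for Chrna9 and 0.55 for Bst1. The 4 higher members and Scin moved away from 0 by this weighting, and the other 5 moved toward it. For Cldn4, Chrna9 and Bst1 the pooled ratio had been nearer to 0 than that of any single stage, beside a cycling share of 8.12% in knockout-labelled and 4.56% in WT cells and a low level of these genes in cycling cells.

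Cells close to the thresholds mostly differed in the same direction. Of cells just outside the Ptcra gate (0 UMIs, 1615 knockout-labelled and 1354 WT cells), Emid1 was at 27.6 against 78.3 CPM and Bst1 at 60.3 against 38.1 CPM, beside 42.6 against 157 CPM and 139 against 102 CPM in cells just inside (1 UMI). At 0 UMIs of Rag1, Scin was at 27.5 against 90.8 CPM, and at 1 UMI at 22.5 against 94.3 CPM. At 4 UMIs of Mki67 (66 and 15 cells) Bst1 was at 110 against 50.2 CPM, and at 5 UMIs (45 and 12 cells) at 96.2 against 45.3 CPM. At an early sum of 1, Scin was at 35.4 against 120 CPM, and at 2, at 36.3 against 179 CPM. Exceptions lay in the small groups: Fam163b was at 16.1 against 4.57 CPM at 4 and 18.6 against 15.1 CPM at 5 UMIs of Mki67, Khdc1a at 48.9 against 25.2 CPM at 5, and Scn4b at 4.59 and 1.69 CPM where the WT cells held no UMI. Atoh8 was at 4.66 against 5.05 CPM at an early sum of 2.

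Levels in CPM also differed between stages within each library. Cycling cells held more UMIs (medians of 15352 in knockout-labelled and 19520.5 in WT cells) than Rag1-positive resting cells (5877.5 and 6094). Early cells did so too (14920 and 15068), so a lower CPM below need not mean fewer transcripts per cell. In cycling cells Chrna9 was 6.98-fold (5.80 to 8.47) below Rag1-positive resting cells in the knockout-labelled and 12.1-fold (7.97 to 19.4) below in the WT library. Scn4b was likewise 10.6-fold (6.68 to 18.1) and 19.1-fold (11.9 to 32.9) below, and Cldn4 5.31-fold (4.36 to 6.53) and 9.73-fold (6.04 to 16.8). All 10 members were below their Rag1-positive resting level in cycling WT cells, and 9 in cycling knockout-labelled cells. The exception was Scin, which stood 1.82-fold (1.55 to 2.14) above that level in cycling knockout-labelled cells and 1.52-fold (1.33 to 1.74) below it in cycling WT cells. In early cells Scin was above the Rag1-positive resting level in both libraries, 4.06-fold (3.42 to 4.82) in knockout-labelled and 1.92-fold (1.68 to 2.19) in WT cells, whereas the other 9 members were lower in early cells, Kremen1 in the knockout-labelled library only within counting error (0.765-fold, 0.516 to 1.10).

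Members also changed with Rag1 within the resting cells. With each cell thinned to 3000 UMIs, Fam163b stood at 17.3 UMIs per 100 knockout-labelled and 37.3 per 100 WT cells without Rag1, and at 41.2 and 71.6 per 100 cells with 3 or more Rag1 UMIs. Cldn4 was at 14.7 and 8.26 UMIs per 100 cells without Rag1 and at 29.6 and 15.3 with 3 or more. Scin showed no such increase, at 5.32 and 29.8 per 100 cells without Rag1 and 4.71 and 27.0 with 3 or more. The log2 ratio between the libraries nonetheless stayed between -1.11 and -0.76 for Fam163b, 0.79 and 0.98 for Cldn4 and -2.97 and -2.48 for Scin over the 4 levels of Rag1.

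In single cells the 2 sides of the list did not exclude each other. Among Rag1-positive resting cells thinned to 3000 UMIs (4050 knockout-labelled and 3218 WT cells), 24.2% of knockout-labelled (22.9 to 25.5) and 65.9% of WT cells (64.2 to 67.5) held more UMIs of the 6 WT-higher than of the 4 KO-higher genes. The converse held for 48.0% of knockout-labelled (46.4 to 49.5) and 15.4% of WT cells (14.2 to 16.7). Within the knockout-labelled library, cells with 0, 1, 2 and 3 or more UMIs of the WT-higher genes had 1.41, 1.66, 1.91 and 2.09 UMIs of the KO-higher genes per cell. Within the WT library the same cells had 0.796, 0.999, 1.12 and 1.21. So the 2 sides increased together from cell to cell inside each library, the opposite of how they differed between libraries. Between the lowest and the highest of these bands Ptcra increased from 242 to 317 UMIs per 100 knockout-labelled cells and from 222 to 280 per 100 WT cells, and Rag1 and Il2ra were higher in the highest band of both libraries too. Dntt went the other way in the knockout-labelled library, from 352 to 312 per 100 cells, and was at 463 and 480 per 100 WT cells. The part of these genes in the pattern was not tested.

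**Figure D4:**
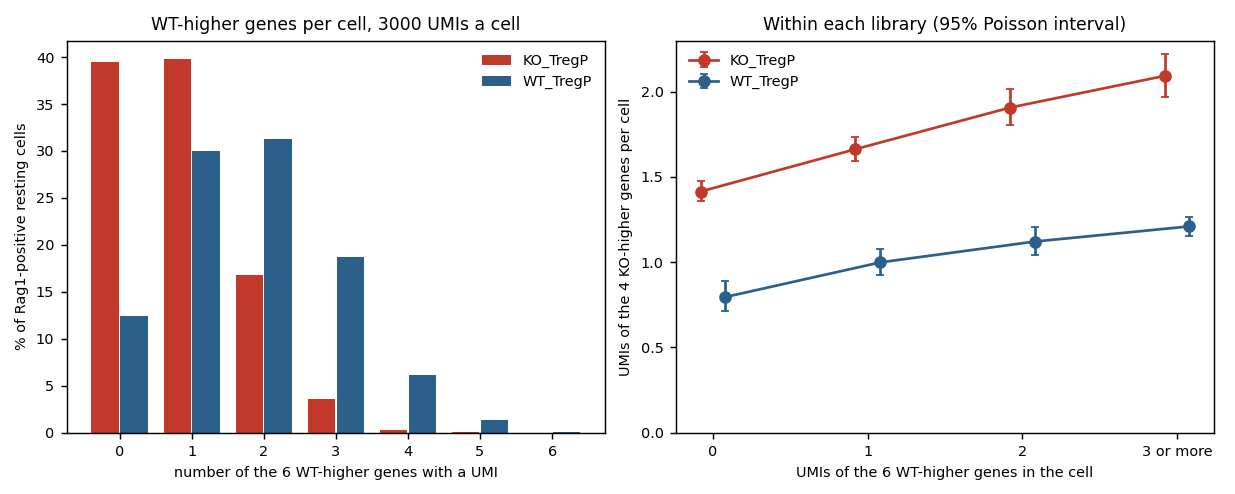
Rag1-positive resting cells thinned to 3000 UMIs each. Left, percent of cells against the number of the 6 WT-higher genes with a UMI, knockout-labelled (KO_TregP) bars left of WT (WT_TregP) bars; 39.5% of knockout-labelled and 12.5% of WT cells held none, and each library has a single peak. Right, UMIs of the 4 KO-higher genes per cell against UMIs of the 6 WT-higher genes in that cell, with 95% Poisson intervals, increasing from 1.41 to 2.09 in the knockout-labelled and from 0.796 to 1.21 in the WT library.

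The share of cells with a UMI gave the same order. Thinned to 1500 UMIs a cell (72 knockout-labelled and 42 WT cells were shallower and left out), Scn4b was detected in 3.11% of knockout-labelled (2.71 to 3.56) and 10.2% of WT cells (9.40 to 11.1), beside 10.3% and 29.5% before thinning. Bst1 was detected in 30.8% (29.7 to 31.9) and 22.9% (21.7 to 24.1), beside 72.8% and 60.2%. Cells of the same libraries with at least 1 UMI each of Cd4 and of Trac and 0 of Ptcra served for comparison. They did not lack all members: before thinning, Emid1 was detected in 8.87% of the knockout-labelled and 5.59% of the WT cells, and Kremen1 in 6.83% and 10.1%. At 1500 UMIs, Scn4b was detected in 0.690% of 290 such knockout-labelled and 0.182% of 550 such WT cells, and Bst1 in 0.690% and in 0 of 550, which allows up to 0.545%. The median depth of these cells before thinning was 6638 UMIs in the knockout-labelled and 5847 UMIs in the WT library, against 5998 and 6082 UMIs in the selected cells. For both genes the selected cells of either library were above the Cd4 and Trac cells of the same library.

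Emid1 and Kremen1 were the members with appreciable levels in the Cd4 and Trac cells. In the CD25+ gate, Cd4 and Trac cells (293 knockout-labelled and 555 WT cells) held Emid1 at 14.4 CPM (33 UMIs) and 8.84 CPM (34 UMIs), and Kremen1 at 8.76 CPM (20 UMIs) and 15.1 CPM (58 UMIs). In the CD25- gate (760 and 1104 cells), Emid1 stood at 33.9 CPM (206 UMIs, 29.4 to 38.8) in knockout-labelled and 16.1 CPM (112 UMIs, 13.2 to 19.3) in WT cells, 2.11-fold higher (1.67 to 2.68). The direction of Emid1 there was thus opposite to that in the selected cells. Kremen1 kept its direction in the CD25- gate, at 16.6 CPM in knockout-labelled and 23.1 CPM in WT cells (log2 -0.48, -0.85 to -0.11). Of the 10 members, 1 was counted as higher there and 0 as lower, where 2.58% and 0.875% of 6743 tested genes were; in the CD25+ gate none reached 20 CPM (2.78% and 3.58% of 6808 tested genes). Khdc1a, Atoh8 and Bst1 had no UMI in the Cd4 and Trac cells of either CD25- library.

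**Figure D5:**
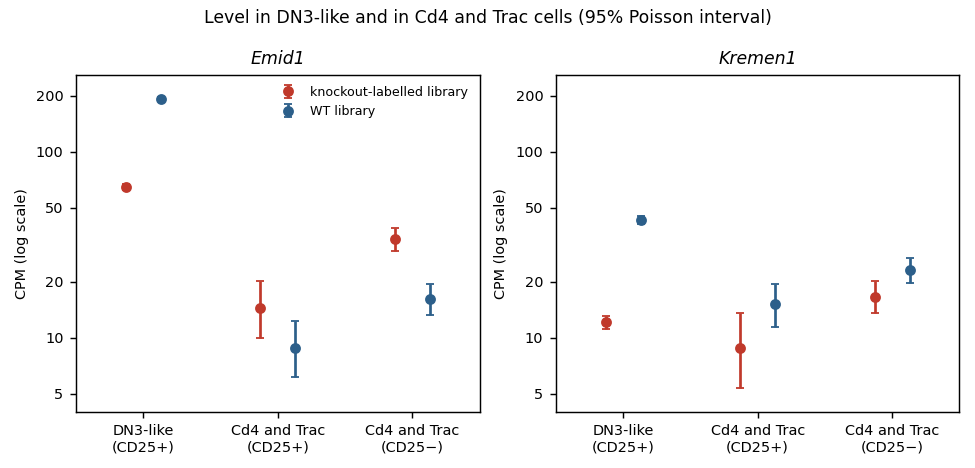
Emid1 and Kremen1 in CPM on a log axis, in the selected DN3-like cells and in Cd4 and Trac cells of both gates, knockout-labelled library left of WT, with 95% Poisson intervals. Emid1 stood at 64.3 against 192 CPM in DN3-like cells and at 33.9 against 16.1 CPM in Cd4 and Trac cells of the CD25- gate.

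Lists of other genes were compared between the libraries in the same cells. Over all selected cells none of the 21 DN3 genes at 20 CPM was counted as higher or lower (median log2 -0.24 over 23), with Dntt lowest at 1097 against 1512 CPM and Nrarp highest at 10.0 against 8.26 CPM. In cycling cells the list leaned the other way, with 3 of 20 higher (Rag1, Notch3 and Hes1) and a median log2 of 0.20. Of beta-selection and DN4 genes 1 of 14 was lower, Egr1, at 28.2 against 50.3 CPM. Of early progenitor genes 0 of the 5 at 20 CPM were called, but the median log2 over the 16 with 20 UMIs was 0.63, with Fcer1g highest at 9.29 against 3.70 CPM and Nfe2 lowest at 23.4 against 31.2 CPM. Proliferation genes were higher for 11 of 18, led by Ccnb2 at 45.5 against 20.2 CPM, and Mcm5 was lowest at 106 against 93.6 CPM. By stage 1 of 20 was higher in early cells (median log2 -0.26), 3 of 20 in cycling cells (0.26), 4 of 7 in Rag1-positive and 5 of 12 in Rag1-zero resting cells, beside the larger cycling share of the knockout-labelled library. Interferon response genes were higher for 7 of 10, led by Ifi27l2a at 36.9 against 5.37 CPM, with Bst2 lowest at 373 against 400 CPM, and in each of the stages 6 or 7 were higher. Dissociation and heat shock genes were lower for 4 of 11, led by Hspa8 at 481 against 2683 CPM, with a median log2 of -0.45. Their summed level was 2370 CPM in knockout-labelled and 5299 CPM in WT cells, with most of that gap from Hspa8. In Cd4 and Trac cells of the CD25+ gate the sum was 2023 against 4065 CPM, with 3 of 9 lower. Of 11 interferon response genes at 20 CPM in those cells, 0 were called. Stress, interferon response and division genes thus differed, over all selected cells, between the same libraries as the members did, and their part in the members' difference was not tested.

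Markers of other cells were looked for because Cldn4 and Epcam are epithelial genes elsewhere. Of 12 thymic epithelial genes 0 of the 2 at 20 CPM were called over all selected cells, 1 was higher in early cells and 1 in cycling cells, where the list summed to 165 against 83.4 CPM. Over all selected cells the keratin Krt5, Krt14 and the factor Foxn1 had 0 UMIs in both libraries, and the summed level was 267 CPM in knockout-labelled and 228 CPM in WT cells, most of it Epcam (228 and 193 CPM). The part of these genes in the difference of Cldn4 was not tested. The sums of the endothelial, B cell, myeloid and dendritic, and erythroid lists were 59.9, 91.0, 149 and 3.54 CPM in knockout-labelled and 60.3, 101, 174 and 2.83 CPM in WT cells, with no gene called. The mesenchymal list had 1 gene at 20 CPM, Pdgfrb, higher at 23.3 against 14.6 CPM, with Pdgfra, Col1a2, Col3a1, Dcn and Lum at 0 in both libraries. Of 3 innate lymphoid genes at 20 CPM 1 was higher, Gzma, at 212 against 133 CPM. Of 5 γδ T cell genes 3 were lower, led by Tcrg-C2 at 155 against 416 CPM, while Trdc was level at 117 against 118 CPM, and of the mature αβ list, which includes the gating genes, and the sex-linked list 0 of 2 were called each.

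Of the other genes, outside the classes that the naming rule leaves out, the 5 highest and 5 lowest ratios were these. H2-Q6 and H2-Q7, class Ib histocompatibility genes with near-identical copies, stood 17.8-fold (13.2 to 24.7) and 7.06-fold (6.54 to 7.63) higher in knockout-labelled cells, followed by Ifi27l2a, Sorl1 and Mid1. Hspa8 was 5.58-fold (5.50 to 5.66), Nefh 3.77-fold, Ccl4 3.40-fold, Thy1 3.39-fold and Hsph1 3.08-fold lower. All 10 of these kept their direction in the 4 stages.

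By pattern over the 8 combinations of stage and library, the genes most like the mean of the WT-higher members were Anks1b (Pearson r 0.99), Birc6 (0.98) and Mettl23 (0.98), among 10341 genes with 100 UMIs. Most like the KO-higher members were Pkp3 (1.00), Brdt (1.00) and Thumpd2 (0.99). Of these, Anks1b differed by 6.15-fold between the libraries (44 knockout-labelled and 193 WT UMIs), and the other 5 by at most 1.32-fold. Each member correlated with the mean of its own side at 0.84 or more except Scin, at 0.39. That mean includes the member itself, which raises the value. These 8 points share 2 libraries and differ in depth, and the values are descriptions.

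Members were spread over 7 chromosomes in GENCODE vM21 positions on GRCm38 (mm10). Emid1 (ENSMUSG00000034164, chr11:5106265-5152257) and Kremen1 (ENSMUSG00000020393, chr11:5191552-5261558) are neighbours, both protein-coding on the minus strand with 39295 bases between them, and they share their direction. Ewsr1 and Rhbdd3, closer to Emid1 than Kremen1 is, had log2 ratios of 0.31 and 0.39, and Znrf3, next to Kremen1, one of -0.41. Within 5 Mb of them 3 of 42 tested genes were lower and 2 higher. Scn4b (ENSMUSG00000046480, plus strand, chr9:45138395-45154152) had 5 of 36 tested genes lower within 5 Mb (13.9%): Hspa8, Thy1, Hyou1, Kmt2a and Il10ra, and 1 higher, Sorl1, while its paralog Scn2b, 8325 bases away, had a log2 ratio of 0.31. No gene called in either direction lay within 5 Mb of Fam163b (ENSMUSG00000009216, minus strand, chr2:27110380-27142491), Khdc1a (ENSMUSG00000067750, plus, chr1:21349641-21352200), Scin (ENSMUSG00000002565, minus, chr12:40059769-40134228), Atoh8 (ENSMUSG00000037621, minus, chr6:72206177-72235577) or Chrna9 (ENSMUSG00000029205, plus, chr5:65934921-65977326), out of 80, 9, 11, 22 and 17 tested. All 10 members are annotated as protein-coding. Bst1 (ENSMUSG00000029082, plus strand, chr5:43818885-43843986) overlaps Fbxl5 on the opposite strand, which had a log2 ratio of 0.29; the strand setting used in counting is not stated. Cldn4 (ENSMUSG00000047501, minus strand, chr5:134945119-134946934) lies 2482 bases from Mettl27, which was higher too, at 33.9 against 20.7 CPM. Khdc1a has the near relative Khdc1c 16131 bases away, with 78 knockout-labelled and 119 WT UMIs, so reads shared by these copies cannot be placed.

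Promoters from RefSeq (GRCm38.p6, 250 bases before to 50 after the start) matched 7 of the 10 members in 8 entries; Khdc1a, Kremen1 and Bst1 had none. They are printed for the KO-higher members and for 2 WT-higher members, to show the E-box core that bears on E2A and HEB, the E proteins of early thymocytes. CAGCTG, which reads the same on both strands and is one case of the E-box CANNTG, occurred in 4 of the 8 entries: all 3 of the KO-higher members with an entry, and the inner of 2 Emid1 starts. Among all 32851 promoters 16.3% held it, and CANNTG occurred in 6 of 8 entries against 72.3% of all. Searched on both strands, the Notch factor's GTGGGAA was in 0 of 8 (6.38% of all), the RUNX motif TGTGGT in 1 (16.8%), the TCF/LEF motif CTTTGA in 1 (16.003%), the GATA motif AGATAA in 0 (11.2%) and TATAAA in 0 (13.6%). The windows are Cldn4 chr5:134946885-134947184 (minus), Atoh8 chr6:72235528-72235827 (minus), Chrna9 chr5:65966874-65967173 (plus), the inner Emid1 start chr11:5150025-5150324 (minus) and Scn4b chr9:45138374-45138673 (plus), 5′ to 3′ with CAGCTG, and TGTGGT in Emid1, in capitals. The Chrna9 window lies inside the GENCODE gene, whose annotated start is farther upstream. A match says only that the letters are present.
Cldn4: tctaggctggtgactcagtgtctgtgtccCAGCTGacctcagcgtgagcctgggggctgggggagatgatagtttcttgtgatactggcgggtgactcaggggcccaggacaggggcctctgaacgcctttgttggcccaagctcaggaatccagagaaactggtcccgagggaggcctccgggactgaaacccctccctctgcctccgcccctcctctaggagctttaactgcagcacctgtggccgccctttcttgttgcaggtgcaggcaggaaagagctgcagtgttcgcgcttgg
Atoh8: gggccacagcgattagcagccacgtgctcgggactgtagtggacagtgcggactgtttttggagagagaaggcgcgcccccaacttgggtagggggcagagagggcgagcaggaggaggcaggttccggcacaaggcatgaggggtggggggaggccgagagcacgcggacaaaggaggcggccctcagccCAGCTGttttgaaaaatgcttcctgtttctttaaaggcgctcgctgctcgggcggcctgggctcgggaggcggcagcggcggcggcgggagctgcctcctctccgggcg
Chrna9: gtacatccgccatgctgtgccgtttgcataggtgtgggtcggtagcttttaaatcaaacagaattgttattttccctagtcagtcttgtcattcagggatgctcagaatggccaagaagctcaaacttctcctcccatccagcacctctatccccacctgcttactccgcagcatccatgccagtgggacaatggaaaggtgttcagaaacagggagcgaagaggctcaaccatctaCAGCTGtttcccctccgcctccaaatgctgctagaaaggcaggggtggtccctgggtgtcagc
Emid1 (inner start): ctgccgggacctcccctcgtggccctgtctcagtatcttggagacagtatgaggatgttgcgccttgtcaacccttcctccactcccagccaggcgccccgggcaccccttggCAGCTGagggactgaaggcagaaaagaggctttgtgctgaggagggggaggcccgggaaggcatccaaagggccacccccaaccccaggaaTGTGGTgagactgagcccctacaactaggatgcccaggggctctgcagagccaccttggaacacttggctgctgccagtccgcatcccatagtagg
Scn4b: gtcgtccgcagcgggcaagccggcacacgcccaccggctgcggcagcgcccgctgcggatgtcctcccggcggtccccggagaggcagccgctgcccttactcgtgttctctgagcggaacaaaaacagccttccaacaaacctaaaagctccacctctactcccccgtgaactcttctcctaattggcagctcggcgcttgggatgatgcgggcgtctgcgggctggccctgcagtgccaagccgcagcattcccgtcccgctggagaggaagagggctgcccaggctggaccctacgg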

How the data were processed

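The authors deposited raw UMI counts per gene and barcode for each library. Cell Ranger 6.2.1 and the mm10 genome are named in the submitters' processing notes, but the version per the file headers is 6.1.2. The annotation used for counting is not stated in the labels. The labels' protocols describe a CD73- gate but list CD74 among the stains. Barcodes with fewer than 500 genes or 10% or more mitochondrial UMIs were left out. Doublets scored with Scrublet (scanpy 1.11.5) were removed at 0.8% per 1000 barcodes, which took 8.64% of knockout-labelled and 6.89% of WT CD25+ cells. The kept cells held 68988472 and 54144136 UMIs.

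The UMIs of each stage were added up over its cells and scaled to CPM in Python 3.11.15. With 1 library per group no test was run. Intervals are exact at 95% (Poisson, conditional binomial, Clopper-Pearson), and they and the limit of 3 counts for a count of 0 cover counting error only. A gene was called at 1.5-fold and 20 CPM in either library. Shares were thinned to 1500 and per-cell patterns to 3000 UMIs. The counting and interval steps were tested on simulated data.

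The members, stages, gene lists and alternatives were chosen with earlier results of these data known. Named were the members, the 2 extreme genes of each list with 20 UMIs, the 3 genes most like each side among those with 100 UMIs, and the 5 highest and 5 lowest other genes, leaving out receptor segments, sex-linked, mitochondrial, ribosomal protein, hemoglobin and unnamed genes. A gene that this rule also names is not reported here. Neighbours and other genes with values were chosen after their values were seen. The depth bands, neighbour counts and per-cell patterns were added after seeing the data.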

Additional observations from a re-analysis of the deposited data

Results flagged for a closer look

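The ratios of Emid1 and Fam163b between the libraries had opposite signs in Cd4 and Trac cells and in the DN3-like cells, and the difference between those effects was not tested. In Cd4 and Trac cells of the CD25- gate the log2 ratio of Emid1 was 1.08 (0.74 to 1.42), from 206 knockout-labelled and 112 WT UMIs, against -1.58 (-1.64 to -1.52) in DN3-like cells. In Cd4 and Trac cells of the CD25+ gate it was 0.71 from 33 and 34 UMIs, and the interval (-0.03 to 1.44) included no difference. Fam163b had a log2 ratio of 0.20 in the CD25- gate, from 18 UMIs in each library, and its interval of -0.83 to 1.22 included no difference, against -1.02 in DN3-like cells.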

How the results depend on the processing

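No paired analysis was possible because each group had 1 library and the labels give no replicate numbers. Of 928 member ratios recomputed under 20 settings, 835 stayed within the original counting interval, 91 moved outside it and 2 reversed. Over all DN3-like cells every member kept its direction in each of the 20 settings, Scin ranging from -3.02 to -1.49 and Atoh8 from 0.19 to 0.53 (log2). The 2 reversals were in early cells of 4000 to under 8000 UMIs (21 knockout-labelled and 17 WT cells), where Chrna9 was at -0.75 (7 and 9 UMIs) and Bst1 at -0.0047 (26 and 20 UMIs). A further 9 sign changes fell on values not called, in early or cycling cells. In cycling cells thinned to 3000 UMIs (95 and 28 cells), Cldn4 went from a log2 ratio of 1.67 to -1.18 and Chrna9 from 1.47 to -1.76. Both had not been called there because they lay below 20 CPM. Khdc1a went from -0.12 to 1.04 in the same cells. The thinned ratios of Cldn4, Chrna9 and Khdc1a have no interval and rest on few cells, so no reversal is read from them. No DN3-like cell had a UMI of the Y-linked genes looked for, so the setting that required such a UMI gave no value.

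The cause of the following moves was not tested beyond what each setting removes. Early cells had 5 members lower with doublets kept, the trimmed total, equal weights, no minimum CPM, Ptcra of at least 3, thinning to 3000 UMIs (24 and 9 cells) or an early sum of at least 1, and 6 at 4000 to under 8000 UMIs. Members higher in early cells fell to 1 at Ptcra of at least 3 and to 0 with equal weights, thinning, early sums of at least 1 or 4, 4000 to under 8000 UMIs or 2-fold. In cycling cells thinning gave 2 higher and 6 lower (95 and 28 cells), no minimum CPM and 4000 to under 8000 UMIs gave 4 higher, and under 4000 UMIs 3. In Rag1-zero resting cells 4 were higher with the trimmed or centred total and 1 at 8000 UMIs or more, as in Rag1-positive resting cells. At 2-fold no member was higher over all cells or in either resting stage, and with doublets kept 1 was over all cells. Over all genes 2-fold left 43 higher and 27 lower, no minimum CPM gave 1227 and 737, the common mix 115 higher, and cells under 4000 UMIs 272 lower. Few cells limit the early counts: Scn4b rests on 7 and 12 UMIs there (196 and 101 cells).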

Other observations

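In CD25+ cells outside the DN3-like rule (2645 knockout-labelled and 2864 WT cells), all 10 members differed in the direction seen in DN3-like cells. Scin was at 30.1 against 80.2 CPM and Bst1 at 54.5 against 27.7 CPM. Of these cells, 1615 and 1354 missed the rule only by holding 0 UMIs of Ptcra, with none of Cd4 or Trac. The Cd4 and Trac cells of the CD25+ gate held too few UMIs of most members to show whether they shared the pattern. Before thinning, Bst1 was detected in 6 knockout-labelled and 1 WT cells, Cldn4 in 2 and 1, Atoh8 in 0 and 1, and Chrna9 in 1 and 3. There the WT-higher members had a median log2 ratio of 0.23 and the KO-higher members one of 1.75, with none at 20 CPM. Near Bst1, 10142 bases away on the opposite strand, the unnamed gene model Gm42555 had 29 knockout-labelled and 217 WT UMIs in DN3-like cells, opposite in direction to Bst1.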
